A study of Mus musculus with 10 samples.

Results

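The granin and synaptic vesicle genes described here are 4 granins, Chga, Chgb, Scg2 and Scg3, and 3 genes of the synaptic vesicle and its fusion machinery, Syp, Snap25 and Syt1. They were taken by symbol from the annotation of the Affymetrix mouse Gene 1.0 ST array, and are 7 of 19937 genes that had a probe set annotated to that gene alone. Each of the 7 had 1 such probe set: 10397882 for Chga on chromosome 12, 10476355 for Chgb on chromosome 2, 10355960 for Scg2 on chromosome 1, 10595033 for Scg3 on chromosome 9, 10598359 for Syp on chromosome X, 10476512 for Snap25 on chromosome 2 and 10372324 for Syt1 on chromosome 10. Sacral neural crest progenitors (NCPs) of Sox10-H2BVenus+ mouse fetuses, which carry a nuclear Venus fluorescent protein under Sox10 regulatory sequences, were measured on 3 arrays, and total embryo RNA on 7. NCPs were sorted by Venus fluorescence from dissociated pelvic ganglia of the lower urinary tract at embryonic day 13, with tissue of several fetuses pooled per sample, and because young pelvic ganglion neurons hold on to the fluorescent protein for a while, the gate can also take in early neurons. Total embryo RNA mixes every fetal tissue, nervous system and endocrine organs included, and the labels used here give neither its stage nor its genotype. The 7 total embryo arrays carry only 2 sample numbers in their titles, so p-values measure the spread between arrays, part of which may be technical, and the number of arrays limits the precision.

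Neurons and endocrine cells store peptides and amines in dense-core granules, and neurons release fast transmitters from small clear synaptic vesicles. Granins are acidic proteins that aggregate in the secretory pathway, help granules to form and are cut into peptides. Release needs SNARE proteins, which pull vesicle and plasma membrane together, and synaptotagmins, which couple fusion to calcium, so the 7 genes are widely used as markers of neuronal and neuroendocrine cells.

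In cells of these kinds Chga, Chgb and Scg2 are known to respond to cyclic AMP through a short response element near the start of the gene, and their promoter sequences are shown for that reason. RefSeq promoter windows of GRCm38.p6, which run from 250 bases before to 50 after the annotated start, were found for 6 of the 7 genes, all but Snap25. The element TGACGTNA, in which N is any base, lay in the windows of Chga, Chgb and Scg2 on the strand of the gene, against 2.93% of 32851 windows of all genes when both strands were searched. Its palindromic form TGACGTCA, which is one of the cases of TGACGTNA, lay in the Chgb and Scg2 windows and in 1.79% of all windows. These are matches of letters, chosen after the sequences were seen. Each line below gives 120 bases, from 90 before the start to 29 after it with the start base counted as 0, and capitals mark TGACGTNA and TATAA.
Chga (chr12:102554851-102554970, plus strand): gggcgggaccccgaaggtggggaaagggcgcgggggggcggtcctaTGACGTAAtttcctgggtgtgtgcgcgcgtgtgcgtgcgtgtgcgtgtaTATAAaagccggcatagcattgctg
Chgb (chr2:132781552-132781671, plus strand): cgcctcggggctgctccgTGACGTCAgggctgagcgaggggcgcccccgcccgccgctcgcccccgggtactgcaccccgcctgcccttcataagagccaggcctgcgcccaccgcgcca
Scg2 (chr1:79439997-79440116, minus strand): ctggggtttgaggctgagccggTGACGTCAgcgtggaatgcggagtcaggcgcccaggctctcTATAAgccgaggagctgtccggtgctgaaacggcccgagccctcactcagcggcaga
The element began at -44 in Chga, -72 in Chgb and -68 in Scg2. TATAA, the core of a TATA box, began at -27 in Scg2 and at 5, past the start, in Chga, on the strand of the gene. It lay in 24.9% of all windows when both strands were searched.

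The NCP arrays differed from the total embryo arrays across the whole array, and NCP array 2 stood apart from the other NCP arrays. Levels are log2 values from robust multi-array average (RMA), a normalization of probe set signals over arrays. The spread (SD) of these values over all 28192 probe sets was 0.97 to 1.13 on the NCP arrays, against 1.78 to 1.91 on the total embryo arrays. The median of 1190 olfactory and vomeronasal receptor genes, which few cells outside the nose use and which give a floor for the signal, was 5.39 to 5.62 on the NCP arrays and 3.63 to 3.88 on the total embryo arrays. Housekeeping genes had a median 3.27, 0.61 and 4.31 log2 units above that floor on NCP arrays 1, 2 and 3, against 6.78 to 7.26 on the total embryo arrays. NCP arrays correlated at 0.58 to 0.68 with each other, and total embryo arrays at 0.95 to 0.99 (Pearson, over probe sets, which are not independent). NCP array 2 correlated at 0.58 with both other NCP arrays. With the total embryo arrays, NCP arrays 1, 2 and 3 correlated at 0.59 to 0.61, 0.46 to 0.48 and 0.63 to 0.65. A gene far above the floor in total embryo tended to be lower in NCPs and a gene near the floor higher. Log2 fold changes of the 7 genes that rest on NCP array 2 are given with and without it. Sox10, whose reporter was sorted, was at 7.95, 7.14 and 7.60 on NCP arrays 1, 2 and 3, against a lowest of 6.38, a median of 6.59 and a highest of 6.65 on the total embryo arrays, and was higher in NCPs by 1.0 ± 0.18 (log2, SE, limma adjusted p = 2.78e-04). Among 5 measured genes of neural crest and glial progenitors, 2 rose (Foxd3 by 1.33 beside Sox10) and 2 fell (Ednrb at -1.35 and Erbb3 at -1.20), where 39.6% of all probe sets were called higher and 27.5% lower, and Erbb3, the neuregulin receptor of crest and glia, averaged percentile 45 of the receptor genes in NCPs. With level adjustment, a subtraction of the general dependence on level that is described further on, 2 of the 5 were higher and 1 lower (10.3% and 8.29% of all probe sets). With arrays averaged per title number Sox10 did not pass the test (limma adjusted p = 0.0584). In that setting 1 of the 5 was higher and 2 lower (20.4% and 14.8% of all probe sets). Centred on the receptor genes, the log2 fold changes of all 5 were below 0, at -0.69 for Sox10 and -0.36 for Foxd3. The median of all probe sets was then -1.46.

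Of the 7 genes, 0 rose and 5 fell in NCPs relative to total embryo (limma, adjusted p below 0.05), where 39.6% of all 28192 probe sets were called higher and 27.5% lower. The counts were 0 and 5 at an unadjusted p below 0.05 too. The 5 were the granins Scg3 and Chga and the 3 synaptic vesicle genes Syp, Snap25 and Syt1. Chgb and Scg2 did not pass the test. The share of all probe sets at an unadjusted p below 0.05 was not counted, here or further on. It is at least as large as the share at an adjusted p below 0.05. Only in Scg3, Syp and Syt1 did all 3 NCP arrays lie below all 7 total embryo arrays, which 21.5% of all probe sets did. In whole tissue or sorted pools, fewer cells that use a gene and less RNA per cell cannot be told apart.

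**Figure D1:**
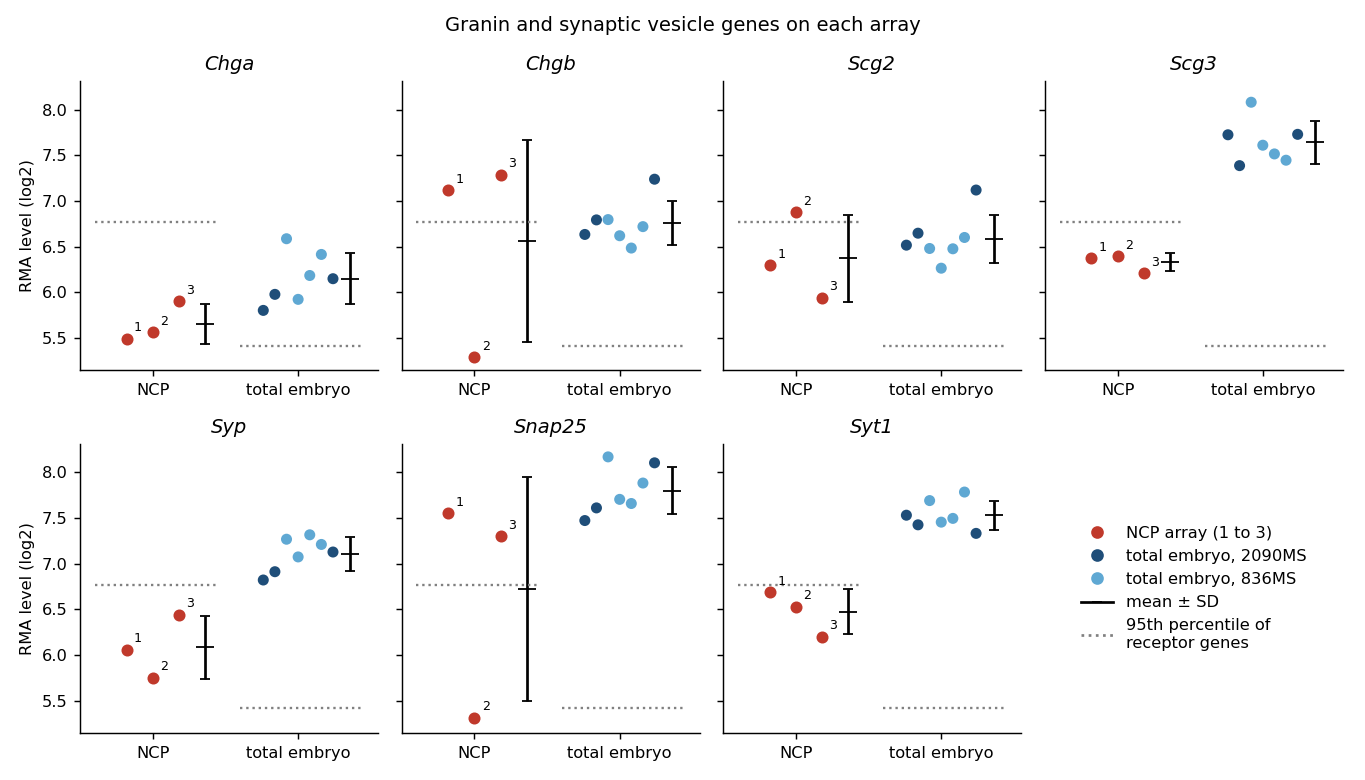
RMA level (log2) of each gene on the 3 NCP arrays (red, numbered) and the 7 total embryo arrays (dark and light blue, by the series prefix in the sample title), with the mean ± SD of each group and, dotted, the mean over each group's arrays of the 95th percentile of the receptor genes. Scg3, Syp and Syt1 lie below all total embryo arrays on every NCP array, while Chgb and Snap25 are split between NCP array 2, at 5.29 and 5.31, and the other 2 NCP arrays, at 7.12 or above.

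Among the granins, Scg3, which ties chromogranin A to the cholesterol-rich granule membrane, was lower on every NCP array as deposited, which level adjustment changed as given further on. Its level was 6.38, 6.39 and 6.21 (log2) on NCP arrays 1, 2 and 3, against a lowest of 7.39, a median of 7.61 and a highest of 8.08 on the total embryo arrays. The groups did not overlap, and the 3 NCP arrays differed little from each other. Scg3 averaged 6.33 ± 0.10 in NCPs (SD, n = 3) and 7.64 ± 0.23 in total embryo (SD, n = 7), a log2 fold change of -1.31 ± 0.17 (SE, limma adjusted p = 2.73e-05), with a 95% interval of -1.69 to -0.93.

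Chga encodes chromogranin A, the granin that gave the family its name and the precursor of the peptide catestatin. It was at 5.49, 5.57 and 5.90 on NCP arrays 1, 2 and 3, against a lowest of 5.80, a median of 6.15 and a highest of 6.59 on the total embryo arrays. NCP arrays 1 and 2 lay below all total embryo arrays and NCP array 3 within their range. Chga averaged 5.65 ± 0.22 in NCPs (SD, n = 3) and 6.15 ± 0.28 in total embryo (SD, n = 7), and the log2 fold change was -0.49 ± 0.20 (SE, limma adjusted p = 0.0403), which did not pass the test without NCP array 2 (-0.45, adjusted p = 0.092). The Chga call was also lost without NCP array 1 and without total embryo array 3, 5, 6 or 7, with log2 fold changes of -0.49 to -0.41.

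Chgb, which encodes chromogranin B (secretogranin I), held levels close to those of total embryo on 2 of the 3 NCP arrays. Its level was 7.12, 5.29 and 7.29 on NCP arrays 1, 2 and 3, against a lowest of 6.48, a median of 6.72 and a highest of 7.24 on the total embryo arrays. NCP array 3 was above all total embryo arrays, NCP array 1 was within their range and NCP array 2 was below them all. The means were 6.56 ± 1.11 in NCPs (SD, n = 3) and 6.75 ± 0.24 in total embryo (SD, n = 7), and the log2 fold change of -0.19 ± 0.35 (SE, limma adjusted p = 0.647) had a 95% interval of -0.95 to 0.57. Without NCP array 2 it was 0.45 ± 0.19 (SE, limma adjusted p = 0.0606), with the opposite sign.

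Scg2 encodes secretogranin II, the precursor of the peptide secretoneurin, and had the reverse order among the NCP arrays. It was at 6.29, 6.88 and 5.94 on NCP arrays 1, 2 and 3, against a lowest of 6.26, a median of 6.52 and a highest of 7.12 on the total embryo arrays. NCP array 2, the lowest for Chgb and Snap25, was the highest of the 3 for Scg2. The log2 fold change was -0.22 ± 0.22 (SE, limma adjusted p = 0.409), with a 95% interval of -0.70 to 0.27, and it was -0.47 without NCP array 2 (adjusted p = 0.07).

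Snap25, the plasma membrane SNARE of neurons and endocrine cells, followed Chgb. Its level was 7.55, 5.31 and 7.30 on NCP arrays 1, 2 and 3, against a lowest of 7.47, a median of 7.70 and a highest of 8.17 on the total embryo arrays. NCP array 1 lay within the total embryo range, NCP array 3 just below it and NCP array 2 more than 2 log2 units under the lowest total embryo array. The means were 6.72 ± 1.22 in NCPs (SD, n = 3) and 7.80 ± 0.26 in total embryo (SD, n = 7), and the log2 fold change of -1.08 ± 0.38 (SE, limma adjusted p = 0.0237) was -0.38 ± 0.21 without NCP array 2 (adjusted p = 0.127), so the call rested on that array. Without NCP array 2, 0 of the 7 genes were higher and 3 lower (Scg3, Syp and Syt1), where 39.4% of all probe sets were called higher and 26.3% lower.

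Syt1, the calcium sensor of fast transmitter release, was lower on every NCP array. It was at 6.69, 6.53 and 6.20 on NCP arrays 1, 2 and 3, against a lowest of 7.33, a median of 7.49 and a highest of 7.78 on the total embryo arrays. The groups did not overlap, and the log2 fold change of -1.06 ± 0.17 (SE, limma adjusted p = 1.07e-04) had a 95% interval of -1.42 to -0.70 and was -1.09 without NCP array 2 (adjusted p = 2.61e-04).

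Syp encodes synaptophysin, an abundant protein of the synaptic vesicle membrane. It was at 6.06, 5.75 and 6.44 on NCP arrays 1, 2 and 3, against a lowest of 6.82, a median of 7.13 and a highest of 7.31 on the total embryo arrays. These ranges were also apart, with NCP array 3 the nearest to total embryo. The log2 fold change was -1.02 ± 0.18 (SE, limma adjusted p = 3.30e-04), with a 95% interval of -1.42 to -0.62, and it was -0.85 without NCP array 2 (adjusted p = 0.00151).

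The titles of the arrays carry a series prefix and a date, and the labels do not say whether either marks a batch. Against the 3 total embryo arrays of that series, the log2 fold changes were -1.28 for Scg3, -0.87 for Syp and -0.96 for Syt1 (limma adjusted p = 0.00355, 0.0302 and 0.0146), while Chga at -0.32 and Snap25 at -1.01 did not pass the test (adjusted p = 0.323 and 0.165), where 26.8% of all probe sets were called higher and 19.5% lower. The 1 total embryo array that also shares the date in the titles of the NCP arrays gave -1.40 for Scg3, -0.74 for Syp, -0.75 for Snap25, -1.06 for Syt1 and -0.15 for Chga, and no gene passed, while 1 was lower at an unadjusted p below 0.05 (adjusted p of 0.16 or more in limma, with the lone array assumed to vary like the NCP arrays), where 1.29% of all probe sets were called higher and 2.45% lower. When arrays were averaged per title number, which left 3 NCP and 2 total embryo samples, Scg3 (adjusted p = 0.0142) and Syt1 (adjusted p = 0.0376) passed, and Chga, Syp and Snap25 did not (adjusted p = 0.266, 0.0548 and 0.238), where 20.4% of all probe sets were called higher and 14.8% lower.

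Because change depended on level across the array, each gene was set against the 500 genes nearest to it in mean total embryo level. Genes in the lowest of 20 level bins, at a median of 3.09 in total embryo, had a median log2 fold change of 2.12, and genes in the highest bin, at 9.93, one of -2.54, while the median of all probe sets was 0.23. Scg3, Syt1 and Scg2 lay near the middle of their neighbours, at percentiles 46.8, 57.2 and 56.8. The neighbours of Scg3 had a median log2 fold change of -1.28 and those of Syt1 one of -1.16, so changes of that size were typical of genes at their total embryo level. Snap25 at percentile 70.4 and Chgb at percentile 71.8 were above the median of their neighbours (-1.32 and -0.43), and Syp at percentile 26.4 was below it (-0.77). With all NCP arrays in the mean, Chga was the farthest from its neighbours, whose median was 0.13, at percentile 7.2, but its NCP levels were not separated from those of the receptor genes on any NCP array, as given further on. Without NCP array 2 the percentiles were 93.8 for Chgb, 90.6 for Snap25, 52 for Syt1 and 42.8 for Scg3. Syp was then at 37.8, Scg2 at 34.4 and Chga at 10.4.

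**Figure D2:**
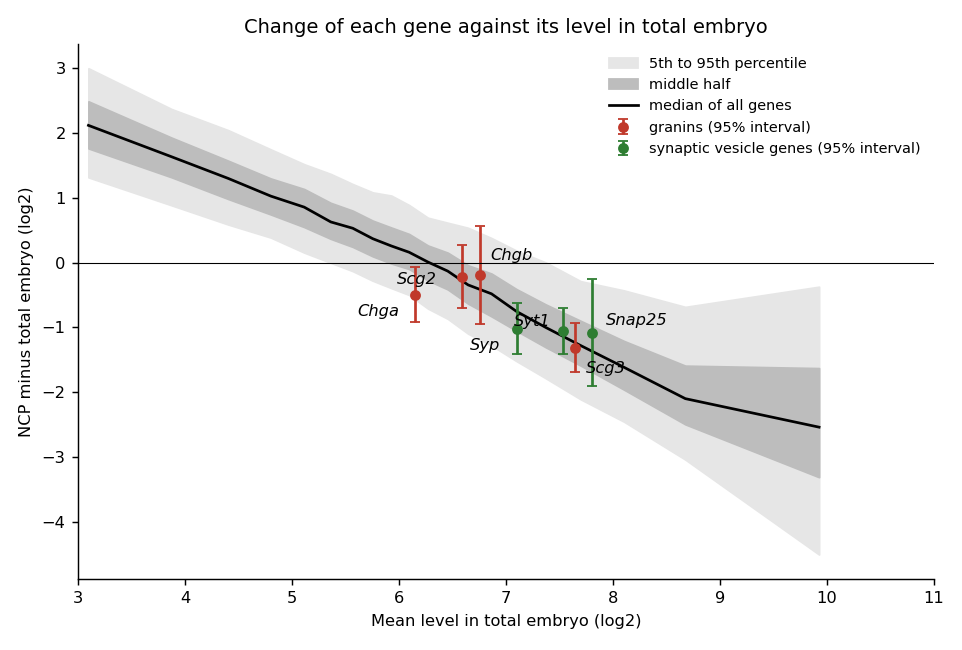
Log2 fold change, NCP minus total embryo, against mean total embryo level (log2), for the granins (red) and synaptic vesicle genes (green) with 95% intervals, over the median, middle range and 5th to 95th percentile of all 19937 genes in 20 level bins. The median of all genes falls by level through 0 near a level of 6.27, and 6 of the 7 intervals cross that median line, with Chga below it.

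With this general dependence subtracted from every array by a smooth curve (level adjustment), 1 of the 7 genes was lower and 0 were higher at an adjusted p below 0.05, where 10.3% of all probe sets were called higher and 8.29% lower, and the counts were the same at an unadjusted p below 0.05. The 1 was Chga, at -0.62 ± 0.19 (SE, limma adjusted p = 0.0433), and it did not pass without NCP array 2 or with arrays averaged per title number (adjusted p = 0.0695 and 0.581, the second where 0.0851% of all probe sets were called higher and 0.00355% lower). Its level was not separated from the receptor genes on any of the 3 NCP arrays. The other 6 were between -0.32 for Syp (adjusted p = 0.207) and 0.23 for Snap25 (adjusted p = 0.693), with Scg3 at -0.14, Scg2 at 0.020, Syt1 at 0.022 and Chgb at 0.20. Chgb, Scg2, Snap25 and Syt1 were thus of opposite sign to the values as deposited. None of these passed the test, and each value was smaller than its SE (0.34, 0.23, 0.35 and 0.17 in that order). Level adjustment without NCP array 2, a setting chosen after seeing the data, put Chgb at 0.80 (limma adjusted p = 0.0101) and Snap25 at 0.87 (adjusted p = 0.00994), both higher in NCPs, where 13.7% of all probe sets were called higher and 12.3% lower. In that setting Scg2 at -0.26 and Syt1 at -0.061 had the sign as deposited and were not called.

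The 3 NCP arrays gave different accounts of Chgb and Snap25, and a like account of Scg3 and Syt1. NCP array 1 minus the total embryo mean was 0.36 for Chgb and -0.25 for Snap25, at percentiles 88.0 and 92.4 of the genes of similar level on that array. NCP array 3 gave 0.53 and -0.50, at percentiles 92.4 and 81.6. On NCP array 2 the differences were -1.46 and -2.49, at percentiles 7.4 and 5.8. Set against the mean of the other 2 NCP arrays, NCP array 2 was lower by a log2 difference of -1.91 for Chgb and -2.11 for Snap25, against -0.034 for the median of all genes. Scg2 moved the other way, at 0.76 above the mean of NCP arrays 1 and 3. The drop on NCP array 2 was not limited to Chgb and Snap25. The median level of the housekeeping genes was 8.73, 6.23 and 9.70 on NCP arrays 1, 2 and 3.

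**Figure D3:**
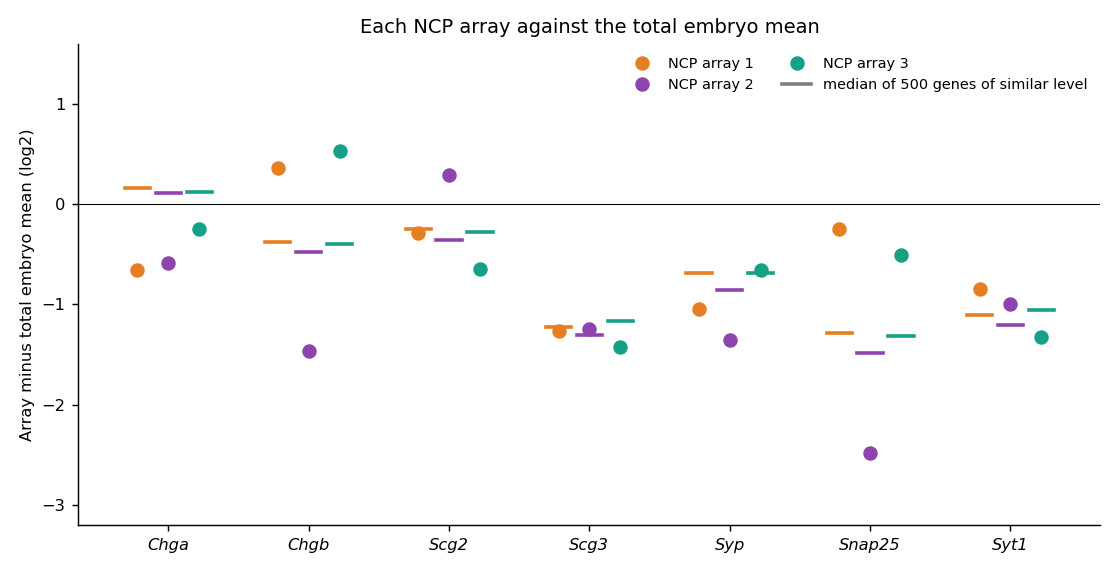
Each NCP array minus the mean of the 7 total embryo arrays (log2) for each gene, with a bar for the median of the 500 genes of similar total embryo level on the same array. NCP arrays 1 and 3 lie above their bars for Chgb and Snap25 and NCP array 2 far below its bar, whereas all 3 arrays lie close to the bars for Scg3 and Syt1.

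A level can also be read against the receptor genes of the same array. On all 7 total embryo arrays, each of the 7 genes was above at least 97.8% of the receptor genes. On NCP arrays 1 and 3, Chgb was above 97.6% and 99.0% of them and Snap25 above 99.2% and 99.0%, whereas on NCP array 2 the shares were 32.6% for Chgb and 33.9% for Snap25, within the body of the floor. Scg2 was above 87.0%, 94.8% and 75.3% of the receptor genes on NCP arrays 1, 2 and 3, and Syt1 above 94.3%, 87.1% and 84.1%. Scg3 was above 89.2%, 83.4% and 84.5% and Syp above 80.1%, 56.3% and 91.7%. Chga, above 52.9%, 45.5% and 73.9% of the receptor genes on NCP arrays 1, 2 and 3, was not separated from the floor on any NCP array. By this reading, only Chgb and Snap25 stood above 95% of the receptor genes on any NCP array, and they did so on 2 of 3. The median housekeeping gene was 0.61 log2 units above the floor on NCP array 2, and its part in the low Chgb and Snap25 levels there was not tested.

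The other genes of regulated secretion were taken from 4 lists. Over these lists 15 genes rose and 8 fell in NCPs at an adjusted p below 0.05 as deposited (39.6% and 27.5% of all probe sets), and 5 rose and 2 fell with level adjustment (10.3% and 8.29%). With arrays averaged per title number 4 rose and 2 fell (20.4% and 14.8% of all probe sets), and with arrays centred on the receptor genes 0 rose and 48 fell in limma (4.78% and 77.9%). Among 10 genes of dense-core vesicle cargo and processing, 3 rose and 2 fell with a median log2 fold change of 0.28. Pcsk1, a proprotein convertase that cuts prohormones, was at 6.44, 5.76 and 6.87 on NCP arrays 1, 2 and 3, against a lowest of 4.82 and a highest of 5.69 in total embryo, and rose by 1.28 (adjusted p = 5.72e-04). Ptprn, a receptor-like protein of the granule membrane, rose by 1.05, whereas Cpe and Pam, which trim and amidate peptides, fell, with log2 fold changes of -1.57 and -1.49. None of these 4 passed the test with level adjustment. Without NCP array 2 Cpe was at -0.90 (adjusted p = 0.00274), and it did not pass with arrays averaged per title number (adjusted p = 0.1).

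Among 15 genes of the synaptic vesicle membrane 4 rose and 2 fell, with a median log2 fold change of 0.076. Syngr3, a synaptogyrin related to synaptophysin in its membrane topology, was at 5.90, 7.48 and 7.42 on NCP arrays 1, 2 and 3, against a highest of 5.46 in total embryo, and rose by 1.57 (adjusted p = 3.37e-04), also with level adjustment (0.90, adjusted p = 0.0443). Syn3, a synapsin, rose by 0.71. Sypl, the broadly expressed relative of synaptophysin, fell by 1.89, and Dnajc5, a vesicle chaperone, fell by 0.72. Sv2b and Rab3a, named after their values were seen, were the 2 of this list that were lower with level adjustment, at -0.75 and -0.50 (adjusted p = 0.00637 and 0.044). Among 10 genes of the neuronal release machinery 2 rose, Vamp1 by 1.02 and Napb by 0.51, and 3 fell, among them Nsf at -0.78 and Cplx2 at -0.47, with a median of -0.099. Without NCP array 2, Napb (0.45, adjusted p = 0.0903) and Snap91 (-0.26, adjusted p = 0.152) did not pass the test. Unc13a and Snap91, picked after their values were seen, were the 2 of this list that were higher with level adjustment, at 1.56 and 0.69 (adjusted p = 0.00378 and 0.00864), as was Scg5 of the dense-core list at 1.36 (adjusted p = 0.00112). Snap91 was the third gene of the list that fell as deposited, by 0.42. Unc13a primes vesicles for fusion and Scg5 is a chaperone of a prohormone convertase, and as deposited their log2 fold changes of -0.30 and 0.14 did not pass the test (adjusted p = 0.426 and 0.596).

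Among 16 other synaptotagmins 6 rose and 1 fell (39.6% and 27.5% of all probe sets), with a median log2 fold change of 0.33. With level adjustment 1 was higher and 0 lower in limma at an adjusted p below 0.05 (10.3% and 8.29% of all probe sets). The level-adjusted counts were the same at an unadjusted p below 0.05. Syt7, a slow calcium sensor, rose by 1.06 (adjusted p = 7.82e-05), also with level adjustment (0.63, adjusted p = 0.0156), and Syt12 rose by 1.46, which was 0.17 with level adjustment (adjusted p = 0.596). Syt4 was the 1 that fell, by 0.93 (adjusted p = 0.00111). General exocytosis SNAREs are used by most cells. Of 10 genes 7 fell, 0 rose and 3 did not pass the test in limma, with the same counts at an unadjusted p below 0.05 and a median log2 fold change of -1.37, where 27.5% of all probe sets were called lower. With level adjustment 2 of the 10 were lower (8.29% of all probe sets), so 5 of the 7 calls were lost. Vamp8 was at 5.18, 5.51 and 5.86 on NCP arrays 1, 2 and 3, against a lowest of 9.65 in total embryo, and fell by 4.84. Snap23, the broadly used relative of Snap25, fell by 3.80, and these were the 2 that passed with level adjustment (-2.41 and -1.54, adjusted p = 4.71e-04 and 7.27e-04). Without NCP array 2, 3 genes rose and 2 fell in the dense-core list and 4 and 2 in the membrane list. The counts were then 2 and 2 in the release list, 5 and 2 among the synaptotagmins and 0 and 7 among the general SNAREs. In that setting 39.4% of all probe sets were called higher and 26.3% lower. With arrays averaged per title number, limma gave 2 and 1 in the dense-core list and 0 and 1 in the membrane list. It gave 0 and 0 in the release list, 2 and 0 among the synaptotagmins and 0 and 5 among the general SNAREs. With this averaging 20.4% of all probe sets were called higher and 14.8% lower in limma. At an unadjusted p below 0.05 the dense-core, membrane and release lists had 2 and 2, 1 and 1 and 1 and 0. The synaptotagmins then had 2 and 1 and the general SNAREs 0 and 5. Among the genes named, Syngr3, Syn3, Dnajc5, Vamp1, Napb, Nsf, Cplx2, Snap91 and Syt4 joined Cpe in not passing there (adjusted p of 0.0537 or more).

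**Figure D4:**
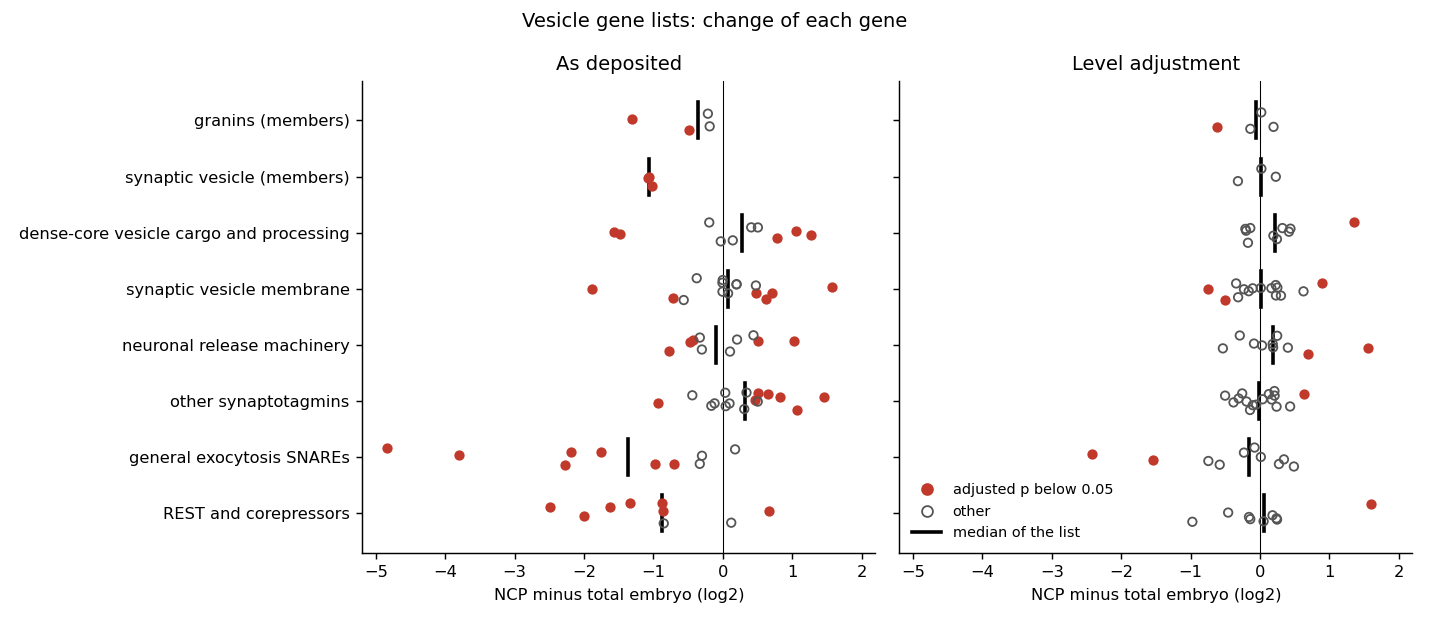
Log2 fold change, NCP minus total embryo, of each gene (points, red where the adjusted p is below 0.05) and the median of each list (bars), as deposited on the left and with level adjustment on the right. As deposited the general exocytosis SNAREs have a median of -1.37 and the other synaptotagmins one of 0.33, and with level adjustment the medians of all the lists lie between -0.15 and 0.22.

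REST, a repressor that keeps many neuronal genes silent in other cells, and its cofactors were measured as 9 genes, of which 1 rose and 6 fell (median log2 fold change -0.87), where 39.6% of all probe sets were called higher and 27.5% lower. With level adjustment 1 was higher and 0 lower in limma at an adjusted p below 0.05 (10.3% and 8.29% of all probe sets). The 1 was Hdac2, a histone deacetylase named after its values were seen, at 1.6 (adjusted p = 0.00225). At an unadjusted p below 0.05 the level-adjusted counts were 1 and 2. With arrays averaged per title number 0 were higher and 3 lower in limma (20.4% and 14.8% of all probe sets), and 0 and 6 at an unadjusted p below 0.05. Rest was at 6.75, 6.42 and 5.83 on NCP arrays 1, 2 and 3, against a lowest of 7.29, a median of 7.70 and a highest of 7.88 on the total embryo arrays. Its ranges did not overlap and it fell by 1.35 (adjusted p = 9.41e-05), but with level adjustment it was at -0.14 (adjusted p = 0.688). The corepressor Rcor2 rose by 0.67, and Hdac1, another histone deacetylase, and Sin3a, a scaffold for deacetylases, fell, with log2 fold changes of -2.49 and -2.0, and none of these 3 passed with level adjustment (adjusted p of 0.123 or more). Sin3a was itself uneven over the NCP arrays, at 4.49, 4.77 and 7.14.

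Markers of other cells that use these vesicles were read beside them. Of 9 neuron markers 3 rose and 4 fell (39.6% and 27.5% of all probe sets), and the mean level of the list was 7.44, 6.82 and 7.68 on NCP arrays 1, 2 and 3, against 7.66 to 8.33 in total embryo. The neuronal tubulin Tubb3 fell by 3.72. Like Chgb and Snap25 it was lowest on NCP array 2, at 9.60, 4.81 and 8.03 on NCP arrays 1, 2 and 3. The neuron markers were divided in this. Elavl4, Nefm and Gap43 were also lowest on NCP array 2, whereas Elavl3, Stmn2, Uchl1, Prph and Nefl were not. Without NCP array 2 Tubb3 was at -2.38 (adjusted p = 1.94e-04), and it did not pass with level adjustment (-1.14, adjusted p = 0.14) or with arrays averaged per title number (adjusted p = 0.0538). Nefl, the neurofilament light chain, rose by 0.67 and was at 7.51, 8.04 and 8.59 on these arrays. With level adjustment 4 neuron markers were higher and 0 lower in limma at an adjusted p below 0.05 (10.3% and 8.29% of all probe sets). At an unadjusted p below 0.05 the level-adjusted counts were 4 and 1, and the share of all probe sets was not counted. With arrays averaged per title number 0 were higher and 2 lower in limma (20.4% and 14.8% of all probe sets), and 0 and 4 at an unadjusted p below 0.05. All 4 markers of adrenal medulla and sympathetic cells rose, Slc18a1 by 1.17 and Dbh by 0.92, with a mean level of 6.10, 6.03 and 6.35 on NCP arrays 1, 2 and 3, against 5.18 to 5.44 in total embryo, where 39.6% of all probe sets were called higher. With level adjustment 0 of the 4 passed in limma, nor at an unadjusted p below 0.05, and with arrays averaged per title number 1 did, Slc18a1 (adjusted p = 0.0327). Centred on the receptor genes, the log2 fold changes of all 4 were below 0, at -0.52 for Slc18a1 and -0.77 for Dbh.

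Brain, islet and pituitary markers were read beside the shares of all probe sets, 39.6% called higher and 27.5% lower as deposited. Of 6 brain markers 2 rose and 2 fell (mean level 5.67 to 6.07 in NCPs, 5.80 to 5.94 in total embryo). Without NCP array 2, 1 rose and 1 fell (39.4% and 26.3% of all probe sets). With level adjustment 0 brain markers rose and 2 fell in limma (10.3% and 8.29% of all probe sets), and 0 and 3 at an unadjusted p below 0.05. With arrays averaged per title number 0 brain markers passed in limma (20.4% and 14.8% of all probe sets), and 1 was lower at an unadjusted p below 0.05. Of 4 pancreatic islet markers 2 rose and 1 fell (6.63 to 7.01 in NCPs, 6.56 to 6.86 in total embryo), and of 2 pituitary markers 1 rose (4.77 to 5.92 in NCPs, 4.53 to 4.99 in total embryo), and with arrays averaged per title number 0 of these 6 passed in limma, while 2 were higher and 1 lower at an unadjusted p below 0.05. With level adjustment 1 islet marker was higher and 0 lower in limma, and 0 pituitary markers passed (10.3% and 8.29% of all probe sets). All 5 markers of smooth muscle and mesenchyme and all 4 of liver fell, with medians of -3.45 and -5.93, where 27.5% of all probe sets were called lower. With level adjustment 3 and 4 of them were lower in limma (8.29% of all probe sets). The liver list was at 5.89 to 6.45 in NCPs and 11.74 to 12.37 in total embryo. The part of any of these cells in the levels of the 7 genes was not tested.

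The 7 genes did not share 1 pattern over the 10 arrays. With each gene centred on its total embryo mean, the root mean square difference between a pair was smallest for Scg3 and Syt1 (0.25) and for Syp and Syt1 (0.29), and largest for Scg2 and Snap25 (0.91). Chgb and Snap25, which shared the drop on NCP array 2, differed by 0.53. The 2 genes nearest to each member among all 19936 others were found by the same measure. Prrt1, a membrane protein of glutamate synapses, was the nearest to Chgb at 0.19 and the nuclear transport GTPase Ran the next at 0.19. Rer1, a sorting receptor of the early secretory pathway, at 0.14 and Dtymk, a nucleotide kinase, at 0.17 were the nearest to Snap25. Both also dropped on NCP array 2, to 6.17 and 5.06, which follows from choosing them by likeness to Snap25 over these arrays. The nearest were Tti2 (0.14) and Ptpra (0.14) to Scg3, Myo1e (0.099) and Rnf217 (0.12) to Syt1, Prpf19 (0.086) and Slco3a1 (0.10) to Syp, Bivm (0.13) and Tgm5 (0.15) to Scg2, and Timm22 (0.13) and the ribosomal protein gene Rpl6 (0.13) to Chga. The median difference from a member over all genes was 0.67 to 0.97, and likeness over 10 arrays of 2 groups says little beyond the shared group difference.

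**Figure D5:**
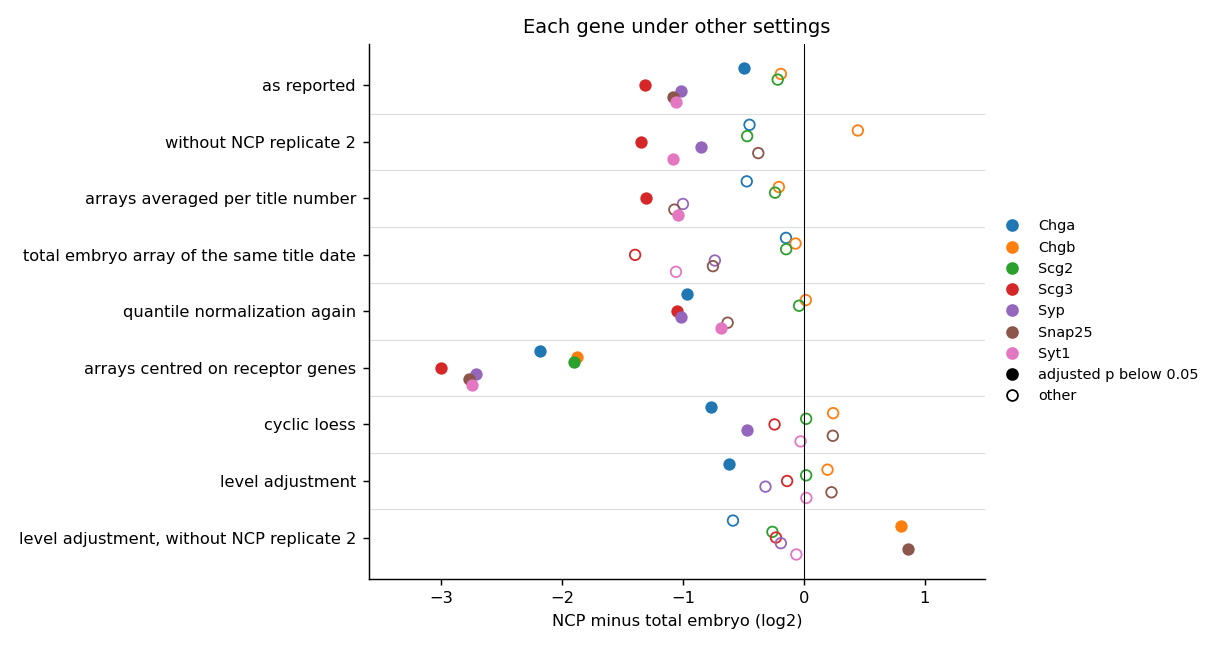
Log2 fold change, NCP minus total embryo, of each gene (colours) as reported and under 8 other settings, filled where the adjusted p is below 0.05. Scg3 stays between -1.40 and -1.31 in the upper 4 settings, cyclic loess and level adjustment put Scg3 and Syt1 between -0.24 and 0.022, and centring on receptor genes, which lowers the median of all probe sets to -1.46, puts all 7 below 0.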

How the data were processed

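Fluorescence of the arrays (Affymetrix, mouse Gene 1.0 ST) had been summarized by the authors to log2 expression values per probe set, by RMA, with Expression Console 1.1. The sources used here do not say which arrays this step normalized jointly. Values were used as deposited for 3 NCP and 7 total embryo arrays, grouped by the sample labels. After 6568 control probe sets had been left out, 28192 were tested with limma 3.58.1 in R 4.3.3 (linear model, moderated test, Benjamini-Hochberg adjustment over all of them, threshold 0.05). The methods also use LIMMA. A gene was read from the probe set annotated to it alone that had the highest mean over the 10 arrays. For level adjustment, a lowess curve (span 0.3) was fitted on each array to its deviation from the average of the total embryo arrays, over that average, and subtracted. Neighbours were the 500 genes closest in mean total embryo level, with 200 and 1000 as alternatives. The fit was checked on simulated data in which all arrays were independent. That check does not cover arrays that share a title number. Promoters came from RefSeq (GRCm38.p6), and figures were drawn with Python 3.11.15.

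The members and lists were chosen with earlier results of these data known. Named genes are the members, from each list up to 2 called genes with the strongest rise and up to 2 with the strongest fall, Rest, Sox10 and the 2 most alike per member. Unc13a, Snap91, Scg5, Sv2b, Rab3a and Hdac2 were named after their values were seen. So were the neuron markers Elavl3, Stmn2, Uchl1, Prph and Nefm. Alternatives changed the scaling, the total embryo arrays, the averaging per title number, the prior, array weights, filter and threshold, or left out 1 array.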

Additional observations from a re-analysis of the deposited data

Results flagged for a closer look

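The 7 total embryo arrays were screened for an array far from the others in 66 genes, and 5 genes had one, where chance flags about 1 in 20 groups. Among the 7 granin and synaptic vesicle genes it was Chgb, at 7.24 on total embryo array 7 with the next array at 6.80, and Chgb did not pass the test with or without that array. The others were Sox10 on total embryo array 2, at 6.38 with the nearest at 6.53, Emx2 on array 7, at 4.22 with the nearest at 4.73, and on array 6 Myo1e at 7.77 with the nearest at 7.45 and Rnf217 at 8.06 with the nearest at 7.89.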

How the results depend on the processing

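At their thresholds Scg3, Syp and Syt1 were lower under 22 of 27 alternatives each, and Chga and Snap25 under 13 each. Where a call was lost or a sign turned the cause was not tested, except that fewer arrays enter some fits. Renewed quantile normalization gave 0.017 for Chgb and -0.63 for Snap25 (not called), with 22.6% of probe sets higher. Cyclic loess gave 0.24 for Chgb, 0.020 for Scg2, -0.24 for Scg3, 0.24 for Snap25 and -0.026 for Syt1, none called, with 2 of the 7 genes lower, 7 other vesicle genes higher and 3 lower, and 16.9% of probe sets higher and 16% lower. Centring on receptor genes gave a median of all probe sets of -1.46, against 0.23 as deposited, and -1.88 for Chgb and -1.90 for Scg2, both called, with 0 other vesicle genes higher, 48 lower, and 4.78% of probe sets higher and 77.9% lower. Level adjustment gave 0.20 for Chgb, 0.020 for Scg2, -0.14 for Scg3, -0.32 for Syp, 0.23 for Snap25 and 0.022 for Syt1, with 1 member lower, 5 other vesicle genes higher and 2 lower, and 10.3% and 8.29% of probe sets. In 2 settings chosen after seeing the data, level adjustment without NCP array 2 gave -0.59, 0.80, -0.23, -0.19, 0.87 and -0.061 for Chga, Chgb, Scg3, Syp, Snap25 and Syt1, with 2 members higher, 0 lower, 9 other vesicle genes higher and 6 lower, and 13.7% and 12.3% of probe sets, and level adjustment with arrays averaged per title number gave -0.60, 0.18, -0.14, -0.30, 0.24 and 0.030 for the same genes, with 0 members or other vesicle genes called, and 0.0851% and 0.00355% of probe sets.

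Total embryo arrays of the same title series gave -0.32 for Chga and -1.01 for Snap25, with 3 members lower and 8 other vesicle genes higher and 3 lower, and 26.8% of probe sets higher and 19.5% lower. The array of the same title date gave -0.15, -1.40, -0.74, -0.75 and -1.06 for Chga, Scg3, Syp, Snap25 and Syt1, with 0 members, 0 other vesicle genes, and 1.29% and 2.45% of probe sets called. Arrays of the other title series gave -1.13 for Snap25. Averaging per title number gave -0.47, -1.0 and -1.07 for Chga, Syp and Snap25, with 2 members lower, 4 other vesicle genes higher and 2 lower, and 20.4% and 14.8% of probe sets. The title number as a random block gave -0.47 and -1.07 for Chga and Snap25 and array weights -0.50 and -0.95, each with 3 members lower and 9 other vesicle genes higher and 5 lower. The random block called 28.4% of probe sets higher and 20.2% lower, and array weights 29.5% and 20.6%. The unmoderated test lost Snap25 (-1.08), and a threshold of 0.01 lost Chga (-0.49) and Snap25 (-1.08), leaving 3 members lower and 9 other vesicle genes higher. At that threshold 32.4% of probe sets were higher and 22.3% lower. The filter on dim probe sets called 16.8% higher.

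Leaving out each array in turn gave -0.62 to -0.41 for Chga, -0.55 to 0.45 for Chgb and -1.49 to -0.38 for Snap25, with 3 to 5 members lower and 26.1% to 28.1% of probe sets lower. Chga was not called without NCP array 1 or 2 or total embryo array 3, 5, 6 or 7, and without NCP array 2 Snap25 was not called and Chgb turned to 0.45. No paired analysis was possible because no replicate numbers are shared between the groups in the titles. The mean over several probe sets of a gene was not run, since each member has 1. The median housekeeping gene was nearer to the receptor floor on all NCP arrays than on the total embryo arrays, and nearest on NCP array 2. The part of this in the NCP values was not tested.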
